A study of Mus musculus with 3 samples.

Results

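The genes described here encode 10 enzymes that modify collagen: the lysyl oxidases Lox, Loxl1, Loxl2, Loxl3 and Loxl4, the lysyl hydroxylases Plod1, Plod2 and Plod3, and the catalytic alpha subunits of prolyl 4-hydroxylase, P4ha1 and P4ha2. They were taken by gene name, out of 27962 names on the array, and every probe that carried one of these names was kept, which gave 15 of 41174 probes. Their RNA levels were measured in mouse embryonic stem (ES) cells, untreated pluripotent cells kept in Knockout DMEM with defined serum and leukemia inhibitory factor, and in mouse embryonic fibroblasts (MEF) kept in DMEM with heat-inactivated serum. Total RNA was read on 3 two-colour Agilent arrays, each with 1 of 3 ES cell replicates in the Cy3 channel and MEF RNA in the Cy5 channel, to find the genes whose expression differs between the cell types. The series' design text calls the Cy5 material mix2, while every sample label calls it MEF; the sample labels were followed, so each ratio has as its denominator the RNA they call MEF. The labels name no mouse strain, cell line, passage or embryonic age for either cell type.

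Collagen is made as procollagen chains in the endoplasmic reticulum. Prolyl 4-hydroxylases act there on proline, which makes the triple helix stable at body temperature, and lysyl hydroxylases act on lysine, which prepares sites for sugars and for crosslinks. Both are dioxygenases that need iron, oxygen, 2-oxoglutarate and ascorbate. Outside the cell, the copper-dependent lysyl oxidases oxidise lysine and hydroxylysine of collagen, and lysine of elastin, and the products join neighbouring molecules. Fibroblasts make and crosslink fibrillar collagen as one of their main functions.

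Each value below was read through a probe of 60 bases, printed once per array. The probes of 6 measurements are given so that the stretch of each mRNA that was measured can be seen. Among them are both Loxl4 probes and the 3 probes whose genomic span exceeded 60 bases. Sequences are those in the deposited scanner files, 5′ to 3′, in lower case throughout because no part of a probe stands out, with positions on mouse build mm7:
Loxl1 probe A_51_P304239, chr9:58319258-58319317, minus strand: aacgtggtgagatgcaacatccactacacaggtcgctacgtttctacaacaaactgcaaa
Loxl2 probe A_51_P275949, chr14:64336628-64336687, plus strand: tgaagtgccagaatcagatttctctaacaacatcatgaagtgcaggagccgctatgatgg
Loxl4 probe A_51_P386533, chr19:42493908-42493967, minus strand: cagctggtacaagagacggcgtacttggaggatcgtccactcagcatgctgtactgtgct
Loxl4 probe A_52_P342526, chr19:42489250-42491402, minus strand: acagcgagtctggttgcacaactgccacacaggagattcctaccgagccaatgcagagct
Plod1 probe A_51_P320304, chr4:146905470-146906890, minus strand: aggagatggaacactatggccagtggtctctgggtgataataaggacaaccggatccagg
Plod3 probe A_52_P207278, chr5:135961736-135961904, plus strand: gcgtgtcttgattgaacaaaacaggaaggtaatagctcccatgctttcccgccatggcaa

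The second Loxl4 probe and the Plod1 and Plod3 probes shown covered 2153, 1421 and 169 bases of genome, more than their own length. All 6 held at least 1 reading frame without a stop codon, as did 10 of the 15 probes. The share over all probes of the array was not computed, so nothing is read from that count about coding position. No annotation of build mm7 was used, so exon numbers and untranslated stretches were not assigned. Probes of different genes among the 15 shared no run longer than 8 bases. Of the 10 genes, 5 had 1 probe and 5 had 2.

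All 10 enzyme genes were lower in ES cells than in MEF by their brightest probe, by 2.56-fold for Plod2 to 34.2-fold for Lox. A gene or probe was called changed at an adjusted p under 0.05 (limma on the log2 ratio of ES cells over MEF, Benjamini-Hochberg over 29498 probes) with a ratio of at least 2-fold. By that rule 10 of 10 genes were called lower and 0 higher, where 22.5% of all 19492 genes tested were called lower and 20.4% higher. Of the 15 probes 14 were tested, and 14 were called lower and 0 higher. Of all probes tested, 21.1% were called lower and 19.9% higher. Among the 14, Loxl4 A_51_P386533 was tested through MEF alone, not being well above background in ES cells. A call of higher was hardly possible for it, and it is counted among the 14 below. The other 13 were well above background in both channels and all called lower. The adjusted p alone separates little on these arrays, since 95.4% of probes passed it without a fold minimum. The ES cell and MEF signals did not overlap for any of the 14 probes, which was also so for 92.0% of all probes tested. A fall of at least 4-fold was seen for 10 of the 14 probes, where 8.53% of all probes fell that far, and a fall of at least 8-fold for 3 of the 14, where 3.29% did.

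The median log2 ratio of the 10 genes was -2.21, beside -0.05 over all genes tested. The 3 arrays were alike: the log2 ratios of the 14 probes had SDs between 0.00547 and 0.134 over the arrays, with a median SD of 0.0303 over all probes tested. Whether separate cultures gave the ES cell replicates is not stated, so each p-value rests on array-to-array spread alone, possibly technical. The sample titles number the ES cell replicates but not the MEF. They do not tell whether the MEF RNA was 1 sample on all arrays, so variation between MEF cultures cannot be judged. No dyes were swapped, so a dye bias of a single probe stays in its ratio. In RNA of whole cultures, fewer cells of a type and less RNA per cell cannot be told apart.

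**Figure D1:**
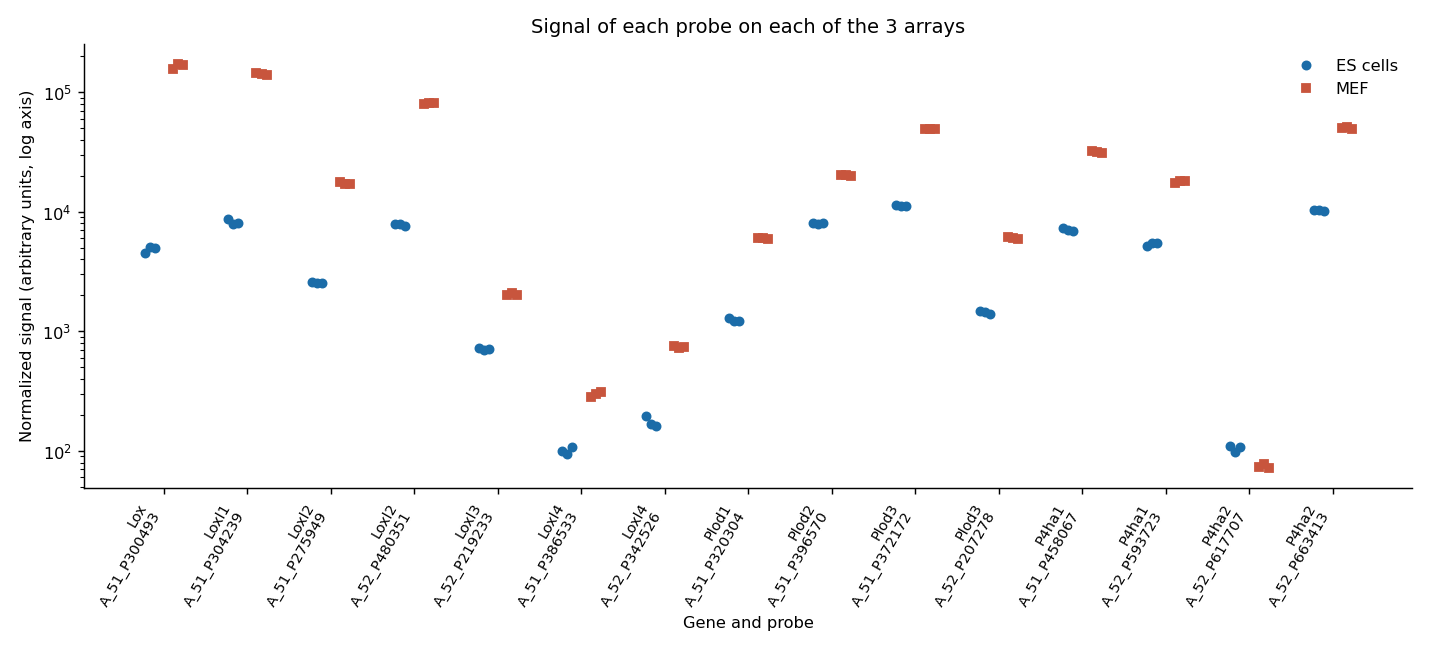
Normalized signal (arbitrary units, log axis) of each of the 15 probes on the 3 arrays, with ES cells as circles to the left of MEF as squares; each point is 1 array. The MEF points lie above the ES cell points for every probe except A_52_P617707 of P4ha2, which was not well above background in either channel, and heights are not comparable between probes.

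Lox encodes the founding lysyl oxidase, which crosslinks collagen and elastin, and it differed most. Its probe lies on chromosome 18 of mm7 from 52894559 to 52894618. The normalized signal of Lox was 4487, 5117 and 5008 in the 3 ES cell replicates, against 157861, 171929 and 169351 in MEF on the same arrays. The lowest MEF reading was thus far above the highest ES cell reading. The log2 ratio was -5.10 ± 0.0359 (SD, n = 3 arrays; adjusted p = 1.87e-07, limma), a level 34.2-fold lower in ES cells. Of all probes tested, 0.251% had a lower ratio.

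Loxl1, a close relative of Lox that is needed for elastic fibre upkeep in the mouse, came next. Its signal was 8735, 7912 and 8085 in ES cells, against 145173, 141274 and 140092 in MEF. The ratio of -4.11 ± 0.0519 (log2, SD, n = 3 arrays; adjusted p = 2.12e-07, limma) is a 17.3-fold lower level in ES cells, and replicate 1 had the highest reading in both channels. Loxl2, a secreted oxidase with scavenger receptor domains that acts on basement membrane collagen, was read by a pair of probes. The brighter one, A_52_P480351 on chromosome 14 from 64339741 to 64339800, gave 7878, 7883 and 7687 in ES cells, against 80373, 81992 and 81475 in MEF. Its log2 ratio was -3.38 ± 0.0275 (SD, n = 3 arrays; adjusted p = 1.90e-07, limma), or 10.4-fold lower. The other Loxl2 probe, A_51_P275949 shown above, gave 2597, 2527 and 2545 in ES cells, against 17613, 17229 and 17225 in MEF. It read the gene as 6.79-fold lower, at -2.76 ± 0.00547 (log2, SD, n = 3 arrays; adjusted p = 1.87e-07, limma). The probes called Loxl2 in the same direction but differed in size by 0.62 ± 0.0294 (log2, SD, n = 3 arrays), between 0.59 and 0.65 on single arrays.

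Loxl3 and Loxl4, which share the scavenger receptor domains of Loxl2, differed less from MEF than the other lysyl oxidases by their brightest probes. For Loxl3 (probe A_52_P219233, chromosome 6 from 83077683 to 83077742) the signal was 732, 702 and 706 in ES cells, against 2001, 2077 and 2008 in MEF. Its log2 ratio of -1.51 ± 0.0564 (SD, n = 3 arrays; adjusted p = 1.95e-06, limma) is a 2.84-fold lower level. Loxl4 was dim. Its brighter probe, A_52_P342526, gave 197, 169 and 161 in ES cells, against 750, 723 and 737 in MEF, and its ratio of -2.08 ± 0.134 (log2, SD, n = 3 arrays; adjusted p = 7.81e-06, limma) had the widest spread of the 14 probes. Its other probe, A_51_P386533, was not well above background in ES cells on any array, at 99.8, 93.4 and 107, against 284, 302 and 312 in MEF, where it was above background on all 3. For that probe the ratio is a bound: the level in ES cells was at least 2.67-fold lower. The adjusted p of 7.21e-06 (limma) belongs to its ratio before bounding and not to the bound. That ratio rests on ES cell signals not well above background. For the bound, the ES cell signal on each array was raised, where it was lower, to the dimmest signal that still counted as well above background, and dye bias stays in it. A brighter limit would give a smaller fold, so the bound is only as firm as that choice. This holds for every bound given here. For the brighter Loxl4 probe, A_52_P342526, the log2 ratio was larger in size with the scanner software's processed signals, at -2.81, and with normexp at offset 0, at -2.45. The run at offset 0 differed from the reported setting only in that offset. Why the processed signals gave a larger ratio was not tested.

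Among the lysyl hydroxylases, Plod1 and Plod3 differed by about the same amount and Plod2 by less. Plod1 hydroxylates lysine within the collagen helix. Its signal was 1290, 1233 and 1217 in ES cells, against 6037, 6004 and 5894 in MEF, and its log2 ratio was -2.26 ± 0.0309 (SD, n = 3 arrays; adjusted p = 2.97e-07, limma), or 4.80-fold lower. Plod3, which also carries glycosyltransferase activity and is needed for basement membranes in the mouse, gave 11382, 11187 and 11135 in ES cells, against 49218, 48924 and 48933 in MEF, by its brighter probe, A_51_P372172 (chromosome 5 from 135967119 to 135967178). The ratio was -2.13 ± 0.0119 (log2, SD, n = 3 arrays; adjusted p = 2.18e-07, limma), or 4.36-fold lower. The second Plod3 probe, A_52_P207278, gave 1482, 1442 and 1397 in ES cells, against 6144, 6064 and 5940 in MEF. Its log2 ratio of -2.07 ± 0.0182 (SD, n = 3 arrays; adjusted p = 2.51e-07, limma) differed from that of the first probe by 0.05, the closest of the gene pairs of probes.

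Plod2 hydroxylates lysine in the telopeptides of collagen, outside the helix, and thereby sets the kind of crosslink that lysyl oxidase can form. Its probe, A_51_P396570 on chromosome 9 from 92241744 to 92241803, gave 8008, 7838 and 8039 in ES cells, against 20461, 20468 and 20126 in MEF. The groups were well apart, but the log2 ratio of -1.35 ± 0.0305 (SD, n = 3 arrays; adjusted p = 8.66e-07, limma) was the nearest to 0 of the 14 probes, a 2.56-fold lower level. Of all probes tested, 15.4% had a lower ratio than Plod2.

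The prolyl 4-hydroxylase subunits fell by similar amounts. P4ha1 encodes the main catalytic subunit in most cells. By its brighter probe, A_51_P458067 (chromosome 10 from 58889719 to 58889778), P4ha1 gave 7285, 7060 and 6944 in ES cells, against 32083, 31818 and 30928 in MEF, a log2 ratio of -2.16 ± 0.0167 (SD, n = 3 arrays; adjusted p = 2.33e-07, limma) and 4.45-fold lower. The second P4ha1 probe, A_52_P593723 (chromosome 10 from 58889435 to 58889494), gave 5204, 5495 and 5438 in ES cells, against 17331, 18131 and 18273 in MEF. It read a smaller difference of -1.74 ± 0.0131 (log2, SD, n = 3 arrays; adjusted p = 2.90e-07, limma), or 3.33-fold. The P4ha1 probes thus lay -0.42 ± 0.0261 apart, the first lower (log2, SD, n = 3 arrays), between -0.45 and -0.40 on single arrays.

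P4ha2, an alternative catalytic subunit of the same enzyme, had 1 usable probe. Probe A_52_P663413, on chromosome 11 from 54088287 to 54088346, gave 10400, 10415 and 10227 in ES cells, against 50393, 51318 and 49345 in MEF. Its ratio of -2.28 ± 0.0160 (log2, SD, n = 3 arrays; adjusted p = 2.14e-07, limma) is a 4.87-fold lower level. The other probe, A_52_P617707 on chromosome 11 from 54084137 to 54084196, gave 110, 97.1 and 107 in ES cells, against 73.7, 77.4 and 71.8 in MEF, was not well above background in either channel on any array, and was not tested, so no ratio is given for it.

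Ordered by ratio, Lox, Loxl1 and Loxl2 were lowest, Loxl4 by its brighter probe lay among the hydroxylases, and Loxl3 lay between the other hydroxylases and Plod2. Lox, Loxl1 and both Loxl2 probes stood apart from one another and from the rest, with array values that did not overlap. From there the probes lay close. P4ha2 (-2.30 to -2.27 over the arrays) and Plod1 (-2.28 to -2.23) overlapped, and P4ha1 A_51_P458067 (-2.17 to -2.14) and Plod3 A_51_P372172 (-2.14 to -2.11) met at the second decimal. Loxl4 A_52_P342526 (-2.20 to -1.93) overlapped P4ha1 A_51_P458067 and both Plod3 probes. P4ha1 A_52_P593723 (-1.75 to -1.72), Loxl3 (-1.56 to -1.45) and Plod2 (-1.38 to -1.32) followed without overlap. Loxl4 A_51_P386533, known only as a bound, has no place in the order. With the scanner software's processed signals, Loxl4 A_52_P342526 moved to -2.81, so the place of Loxl4 in this order is not settled.

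**Figure D2:**
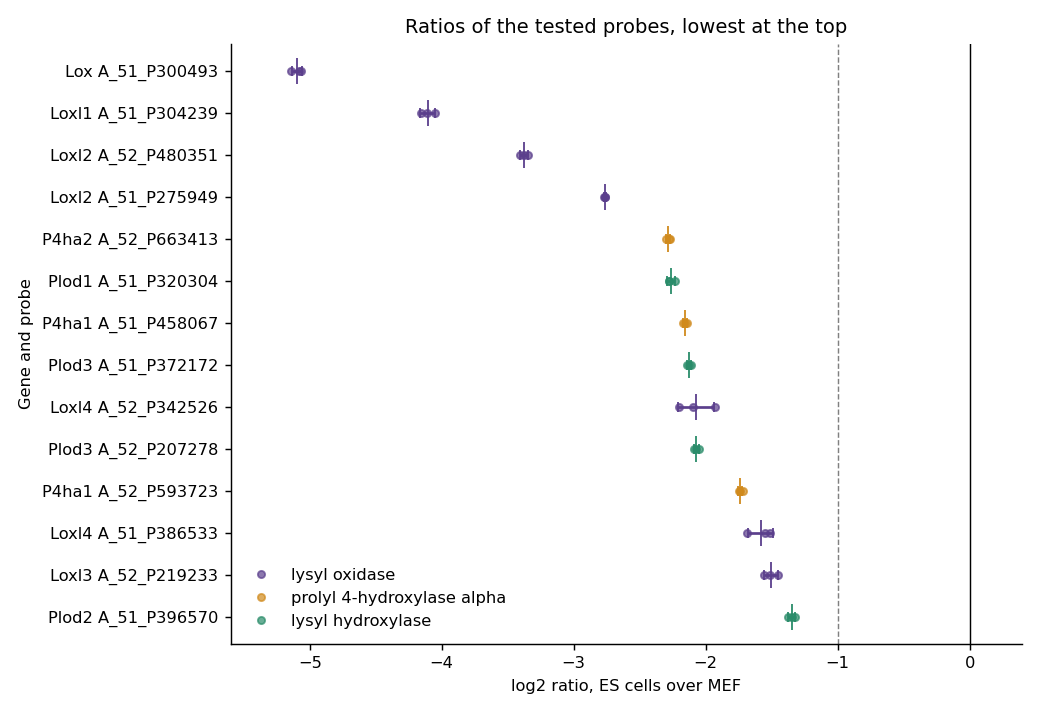
Log2 ratio of ES cells over MEF for the 14 tested probes, ordered from the lowest at the top; points are the 3 arrays, the bar is the mean and the whiskers the SD, the dashed line marks a 2-fold lower level and colours give the enzyme family. Lox stands lowest at -5.10 and Plod2 nearest to 0 at -1.35; the points of Loxl4 A_51_P386533 rest on ES cell signals not well above background, so their place is not exact.

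Other genes of collagen formation were described by the same test, as counts and medians over lists. Of 8 other prolyl hydroxylase genes, 7 were called lower in ES cells and 0 higher (median log2 ratio -1.93, beside -0.05 over all genes). The lowest were P3h3 at -3.47 ± 0.0184 and P3h4 at -3.26 ± 0.0140, both of the prolyl 3-hydroxylase family, and Crtap, a partner of prolyl 3-hydroxylase, was at -1.66 ± 0.0230 (log2, SD, n = 3 arrays). P3h2, of the same family, was not well above background in ES cells and stood at least 3.29-fold lower. P4ha3, named here after its value was seen, was likewise dim in ES cells and at least 3.59-fold lower. These bounds give them no place among the others. Both genes were tested through MEF alone, so a call of higher was hardly possible. With both channels well above background, 5 of 6 genes were called lower and 0 higher. P4hb, named here after its value was seen because it encodes the beta subunit that P4ha1 and P4ha2 bind, was at -2.33 ± 0.0323 (log2, SD, n = 3 arrays; adjusted p = 2.95e-07, limma), or 5.04-fold lower.

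Chaperones and secretion genes of procollagen went the same way, with 13 of 14 tested members lower and 0 higher (median -1.97). With processed signals, the authors' table or median centring, 12 of 14 were called lower. Serpinh1 (Hsp47), the collagen chaperone, was lowest at -5.69 ± 0.0183, a 51.7-fold difference, and Fkbp10, a prolyl isomerase that aids Plod2, was at -3.91 ± 0.0133 (log2, SD, n = 3 arrays). Sec23a, of the coat of secretory vesicles, at -1.14 ± 0.00835 and Fkbp9 at -1.47 ± 0.0115 were the called members with the smallest differences. Of 13 tested genes of procollagen processing and fibril assembly, 12 were lower and 1 higher (median -3.60). Adamts3, named here after its value was seen, was tested through MEF alone and stood at least 5.64-fold lower. With both channels well above background, 11 of 12 were lower and 1 higher. The matrix protein gene Sparc stood at -5.96 ± 0.0326, fibromodulin (Fmod), which binds collagen fibrils, at -5.19 ± 0.0385 and the procollagen protease gene Tll1 at -2.13 ± 0.0760. The exception was Pcolce2, which encodes an enhancer of procollagen cleavage, at 2.82 ± 0.0297, a level 7.05-fold higher than in MEF (adjusted p = 2.17e-07, limma).

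Genes of elastic fibres and fibrillar collagens were lower in ES cells as well. All 15 elastic fibre genes were called lower (median -4.26), and 14 of 15 with processed signals, the authors' table, median centring or the mean of probes. Eln, which encodes elastin itself and is named here after its value was seen, was at -4.98 ± 0.0335, with the fibulin gene Fbln5 at -6.27 ± 0.0671, Mfap4 at -6.03 ± 0.0112, Mfap5 at -2.24 ± 0.0124 and Fbln1 at -1.13 ± 0.0271 (log2, SD, n = 3 arrays). The mean over probes was smaller in size for Fbln5, at -4.41, which lies nearer to 0 than Mfap4, and for Fbln1, at -0.64, where 1 of 2 probes was called. All 11 fibrillar collagen genes were called lower (median -4.98), from Col1a1 at -8.10 ± 0.0149 and Col3a1 at -7.59 ± 0.00782 to Col5a3 at -2.12 ± 0.0159 and Col11a2 at -1.73 ± 0.0269. Averaged over their probes these were smaller in size for Col1a1 (-5.93), Col3a1 (-3.99) and Col11a2 (-0.99). Over means of probes 10 of the 11 genes were called lower. Basement membrane collagens were mixed, with 3 of 7 tested genes lower and 0 higher (median -0.02). That median is the brightest of 3 Col4a6 probes; 2 of the 3 were called lower and their mean was -1.56, and over means of probes 4 of 7 genes were lower and the list's median was -1.56. Col4a6 is named after its value was seen. Those called by the brightest probe were Col4a1 at -3.82 ± 0.0256, Col4a2 at -3.61 ± 0.00712 and Col4a5 at -2.63 ± 0.0563 (log2, SD, n = 3 arrays).

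**Figure D3:**
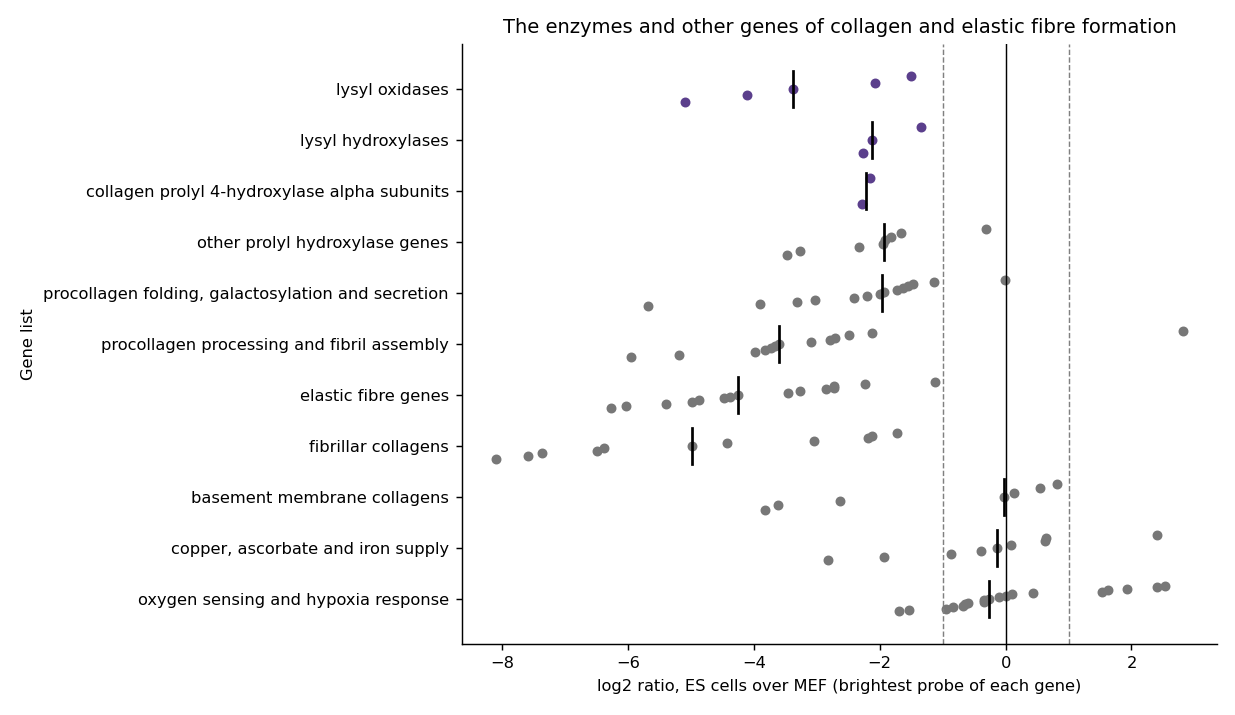
Log2 ratio of ES cells over MEF for each tested gene by its brightest probe, in the enzyme families (purple) and in lists of other genes (grey); points are means of 3 arrays, black bars list medians, and dashed lines mark 2-fold differences. The median is -3.38 for the 5 lysyl oxidases, -4.98 for fibrillar collagens -0.13 for cofactor supply and -0.27 for the hypoxia response; that of basement membrane collagens is -0.02 by the brightest probe and -1.56 over means of probes.

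Genes of cofactor supply and of the response to oxygen had calls in both directions, and nothing is read from their counts. Copper, ascorbate and iron supply had 2 of 9 members lower and 1 higher (median -0.13), where 22.5% of all genes were called lower and 20.4% higher. The ferritin gene Fth1 stood at -2.83 ± 0.0134, Gsto1, whose product can reduce dehydroascorbate, at -1.94 ± 0.0202 and the transferrin receptor gene Tfrc at 2.41 ± 0.0160 (log2, SD, n = 3 arrays). Oxygen sensing and hypoxia response genes, of interest because Lox, Plod2, P4ha1 and P4ha2 are known targets of hypoxia-inducible factors, had 2 of 19 members lower and 5 higher (median -0.27), beside the same shares over all genes. Hif1a, which encodes an oxygen-regulated subunit of these factors, was at -1.70 ± 0.0642 and the target Vegfa at -1.54 ± 0.0127 (log2, SD, n = 3 arrays). Epas1, named here after its value was seen, went the other way at 1.63 ± 0.0639. The targets Pdk1 and Slc2a1 were also higher in ES cells, at 2.53 ± 0.0457 and 2.41 ± 0.0431 (log2, SD, n = 3 arrays). With limma's treat at 1.5-fold, 6 members of that list in place of 2 were called lower.

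Promoters were looked up in RefSeq sequence (GRCm38.p6) because the genes fell together, and 5 of the 10 were matched: Loxl4, Plod1, Plod3, P4ha1 and P4ha2. In the 250 bases before the transcription start, the hypoxia response core ACGTG was found on either strand in 3 of the 5 (Plod3, P4ha1 and P4ha2), where 16.6% of 32851 promoters held it. The GC box GGGCGG was found in 4 of 5 (32.7% of promoters), the CCAAT box in 1 (33.8%) and TATAAA in 1 (12.4%), while TGACTCA (4.5%) and GGAATG (12.6%) were found in none. A match is a description of the letters and not of a bound site. The promoters with the core are printed 5′ to 3′ on the strand of the gene, with the core in capitals as it reads on that strand (CACGT is ACGTG on the other strand); it begins 16 bases before the start in P4ha1, 78 in P4ha2 and 54 in Plod3:
P4ha1, chr10:59323046-59323295, plus strand: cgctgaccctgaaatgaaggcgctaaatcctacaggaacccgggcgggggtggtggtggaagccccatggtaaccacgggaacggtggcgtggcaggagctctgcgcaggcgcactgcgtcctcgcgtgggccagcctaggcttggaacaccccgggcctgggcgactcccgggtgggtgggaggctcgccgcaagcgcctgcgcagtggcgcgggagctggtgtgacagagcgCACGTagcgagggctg
P4ha2, chr11:54100674-54100923, plus strand: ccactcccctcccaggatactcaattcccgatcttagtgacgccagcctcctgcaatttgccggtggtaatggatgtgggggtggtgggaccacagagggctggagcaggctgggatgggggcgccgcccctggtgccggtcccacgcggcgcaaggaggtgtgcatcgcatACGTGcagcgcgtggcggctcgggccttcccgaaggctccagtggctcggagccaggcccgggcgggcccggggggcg
Plod3, chr5:136986769-136987018, plus strand: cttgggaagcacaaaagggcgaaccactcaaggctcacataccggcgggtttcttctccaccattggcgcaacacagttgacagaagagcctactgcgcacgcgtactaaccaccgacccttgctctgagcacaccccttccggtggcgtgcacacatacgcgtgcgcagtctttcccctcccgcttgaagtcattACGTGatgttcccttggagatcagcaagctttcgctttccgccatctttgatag

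Marker genes agreed in direction with the labels of both channels. All 8 ES cell markers were higher in ES cells, among them Pou5f1 at 3.75 ± 0.0550 and Nanog at 4.02 ± 0.0283, and all 8 fibroblast markers were lower, Col1a1 most (log2, SD, n = 3 arrays). Markers of other cell types went in both directions, where 22.5% of all genes tested were called lower and 20.4% higher. All 8 macrophage markers were lower in ES cells, from Lyz2 at -6.18 to Cd68 at -2.73 (log2), with a summed normalized signal of 9875 to 10298 in ES cells against 469676 to 502873 in MEF, and all 5 smooth muscle markers were lower, with sums of 36217 to 37923 in ES cells against 510959 to 517337 in MEF. Of the bone and cartilage markers 3 of 5 tested were lower and 0 higher, with sums of 2272 to 2335 in ES cells against 11187 to 11398 in MEF; Sp7 and Ibsp were not above background on all arrays of either cell type. Of the endothelial markers 2 of 3 tested were higher and 1 lower, and Cdh5 and Tie1 were not above background on all arrays of either. The part of these other cells in the enzymes' ratios was not tested.

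Each of the 14 probes stayed called lower under every alternative in which it was tested, though some alternatives could hardly remove a call. Median centring in place of loess gave the smallest differences for 13 of the 14. Over all probes, the median of the shifts of single probes under it was 0.214, in the same direction. Under it Plod2 stood at -1.07 and Lox at -4.84. Leaving out single arrays moved Lox between -5.11 and -5.08, Plod2 between -1.37 and -1.34, and Loxl4 A_52_P342526, the most variable probe, between -2.15 and -2.01.

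**Figure D4:**
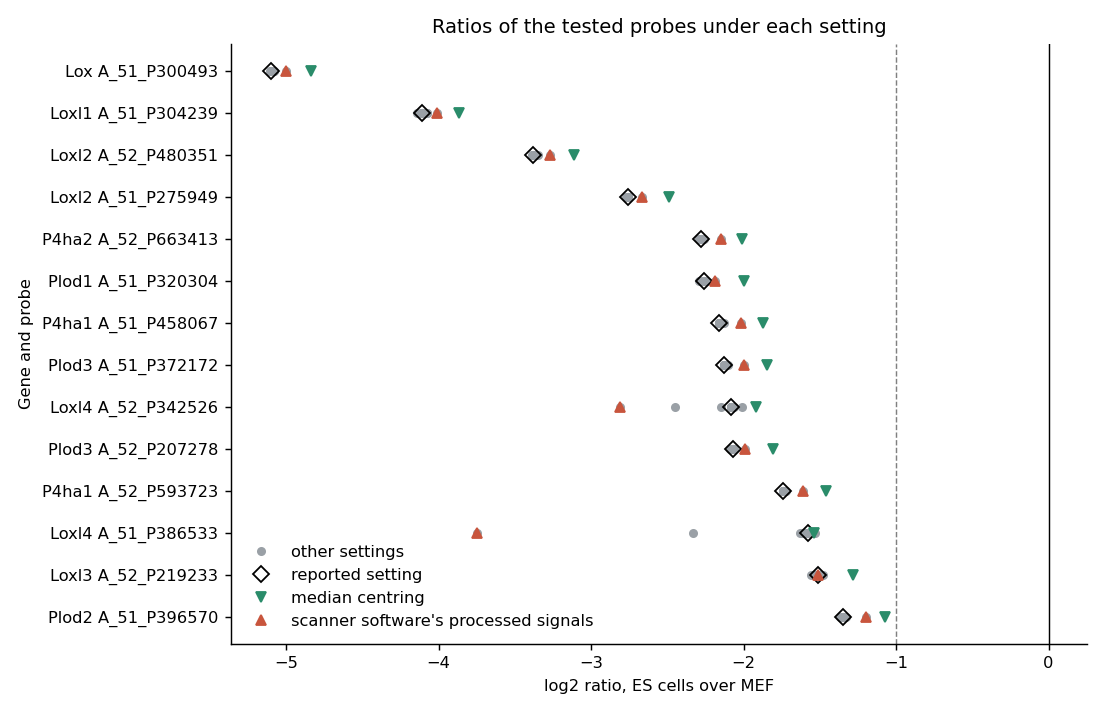
Log2 ratio of ES cells over MEF for the 14 tested probes under the reported setting (open diamonds), with median centring (triangles pointing down), with the scanner software's processed signals (triangles pointing up) and under the other settings (grey circles); the dashed line marks a 2-fold lower level. All values lie left of that line, and Loxl4 A_52_P342526 runs from -2.81 to -1.92; values of Loxl4 A_51_P386533 rest on ES cell signals not well above background and are not exact.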

How the data were processed

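The 3 arrays lay on 1 slide and shared 1 scan, so neither could be tested as a batch. Images were read by the authors with Agilent Feature Extraction (version 9.5.3.1, per the file headers), which gave spot and local background intensities. The software's processed intensities, also deposited, had been corrected for background and dye, with surrogates in place of low signals. The deposited log10 ratio has MEF, the red channel, on top. The authors' deposited log2 table was found to run as ES cells over MEF when set against each array's scanner readings (r of 0.998 to 1.00 across probes); its column medians of 0.213, 0.0860 and -0.143 show no centring, and how it was made is not given in the sources used here.

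Mean signals and median backgrounds were corrected with normexp (offset 50, which shrinks ratios of dim genes) and normalized by loess within arrays, with control spots at weight 0 (limma 3.58.1, R 4.3.3). Outlier spots (117 to 144 per array, 0 of the enzymes) were left out. Channel signals were taken after Aquantile. A probe was tested if well above background in ES cells or in MEF on all 3 arrays; 68.2% to 74.0% of gene spots were so per channel, and the number of arrays limits the precision. The mean log2 ratio was tested against 0 with lmFit and eBayes over 29498 probes. In counts of genes, the brightest tested probe stood for its gene. Names came from RefSeq (GRCm38.p6) by accession for 22944 probes and by symbol or synonym for 9772, and 8458 kept the name in the file. Tested on simulated arrays of this comparison with 29500 probes, the calls had the right sign for 50 of 50 probes at a log2 ratio of -3, 49 of 50 at -1.5, 48 of 50 at 1.5 and 50 of 50 at 3, and 0 of 29300 unchanged probes were called. The simulated noise was small and independent, so with the 2-fold minimum calls of unchanged probes could hardly arise. Few probes were changed, evenly up and down, and none had a dye bias of its own. Errors from loess or from dye bias were therefore not tested.

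The enzymes, gene lists and alternatives were chosen with earlier results of these data known. Named genes were the 10 enzymes with every probe, from each list the called genes at either end of the order by ratio (2 lowest, 2 highest), and markers. Adamts14 had no matched probe, and Colgalt2, Tll2, Tnxb and Col4a3 were not tested. Alternatives were processed signals, no background subtraction, offset 0, median centring, the authors' table, no filter, a filter on both channels, outliers kept, the fit over genes, the mean of probes, no fold minimum, treat at 1.5-fold and leaving out each array.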

Additional observations from a re-analysis of the deposited data

How the results depend on the processing

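The counts of 14 probes and 10 genes called lower, and of 0 called higher, were the same under every alternative, except that a filter on both channels left 13 probes, all called lower. Some alternatives could hardly change these counts. No enzyme spot was an outlier, and dropping the fold minimum cannot remove a call. The authors' table gave these probes the same ratios as the processed signals at the second decimal, so it is no separate check. The elastic fibre genes called lower were 14 in place of 15 with processed signals, the authors' table, median centring and the mean of probes. Genes of procollagen folding and secretion called lower were 12 in place of 13 with processed signals, the authors' table and median centring. Fibrillar collagen genes called lower were 10 in place of 11 with the mean of probes. Of 240 counts over the other gene lists, 230 stayed within 1.5 times the reported count. The exceptions were 1 basement membrane collagen called higher with median centring and with treat, 2 supply genes in place of 1 called higher with processed signals, the authors' table and treat, 6 hypoxia genes in place of 2 called lower with treat, and larger counts for those lists without a fold minimum. Over all probes, 6235 were called lower and 5860 higher, and without a fold minimum 14289 and 13850. Low signal limits Loxl4, whose ratio ran from -2.81 to -1.92 for A_52_P342526 and is known only as a bound for A_51_P386533. Each array pairs 1 ES cell replicate with MEF RNA and gives 1 ratio, and the fit used that pairing by testing the ratios.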
